A study of Homo sapiens with 8 samples.

Results

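SKOV-3 is an established human ovarian adenocarcinoma cell line, and its expression profile is described here against those of 3 other ovarian cancer lines, DOV-13, CAOV-3 and OVCAR-3. Its arrays were chosen by the cell line named in the labels, which gave 2 of the 8 arrays of the series. The 8 groups, of 1 array each, were SKOV-3 given pI:pC, SKOV-3 untreated, DOV-13 given pI:pC, DOV-13 untreated, CAOV-3 given pI:pC, CAOV-3 untreated, OVCAR-3 given pI:pC and OVCAR-3 untreated. The agent pI:pC, short for polyriboinosinic:polyribocytidylic acid, imitates the double-stranded RNA of viruses. It was added to the medium at concentrations that the labels do not give per array. All 4 lines were grown in the same serum-containing medium, total RNA was hybridised to Affymetrix arrays, and the deposited values are log2 levels made with RMA. Each line is a single line in culture, and the labels do not say whether an array held 1 culture or a pool. The lines were not edited or transfected, as far as the labels say.

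SKOV-3 is widely used as a model of ERBB2 amplification. ERBB2 (HER2) is a receptor tyrosine kinase with no ligand of its own, which signals by pairing with the other ERBB receptors and drives growth and survival through the MAP kinase and PI3 kinase pathways. In tumours with the amplification, a block of neighbouring genes on the long arm of chromosome 17 is usually copied along with it. Ovarian carcinoma lines also differ in how epithelial they are: some keep E-cadherin, EPCAM and keratins, and others carry vimentin, ZEB1 and matrix genes.

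The label was checked against ERBB2. ERBB2 had log2 levels of 10.81 and 10.70 in SKOV-3, against 8.44 and 8.65 in DOV-13, 8.05 and 8.21 in CAOV-3 and 8.14 and 8.31 in OVCAR-3. Both SKOV-3 arrays lay above all 6 others, with 2.05 log2 units between the lower SKOV-3 array and the highest other array. The difference from the mean of the other lines was 2.46 ± 0.085 (SE of the fit), or 5.49-fold, and the largest adjusted p of the 3 line contrasts was 4.54e-06. A second, dim ERBB2 probe set had 4.41 and 5.18 in SKOV-3, against 4.002 to 4.47 in the other lines, so that its treated SKOV-3 array was within their range. Ranked by that distance, ERBB2 was number 36 of the genes above all other arrays.

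Each gene was tested with limma in 3 contrasts, SKOV-3 minus DOV-13, minus CAOV-3 and minus OVCAR-3, with treatment as a covariate. A gene was called when all 3 adjusted p-values were under 0.05 with the same sign and both SKOV-3 arrays lay beyond all 6 others. The adjusted p given with a gene below is the largest of the 3, and the gap is the distance in log2 units between the nearest SKOV-3 array and the nearest other array. Within a line, the value of the pI:pC array is given before that of the untreated one. Of 11963 genes measured, both SKOV-3 arrays were above all other arrays for 1847 (15.4%) and below them for 1316 (11%). The calls were 927 higher (7.75%) and 737 lower (6.16%). A gap of at least 1 log2 unit was found for 126 higher genes (1.05%) and 119 lower genes (0.995%).

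These p-values rest on the spread between the treated and untreated array of a line, after the treatment effect common to all lines is taken out, and they say nothing about other cultures of SKOV-3 or about other ovarian lines. When each line was reduced to its mean and SKOV-3 was tested by limma against the spread between the 3 other lines, 0 of 11963 genes (0%) had an adjusted p under 0.05. The smallest adjusted p was 0.0853, for CALB1 and MMP1, and 518 genes had an unadjusted p under 0.05. The calls therefore separate these 4 lines as hybridised here.

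SKOV-3 was closest to DOV-13. Over all genes, its arrays correlated with those of DOV-13 at a Pearson r of 0.937 to 0.941, with CAOV-3 at 0.880 to 0.892 and with OVCAR-3 at 0.892 to 0.893, and with each other at 0.997. These correlations run across genes, which are not independent. Against DOV-13 alone 2302 genes were higher and 2264 lower in SKOV-3, against CAOV-3 3142 and 2977, and against OVCAR-3 3266 and 2836, at an adjusted p under 0.05. By the same rule for a call, DOV-13 had 838 genes higher and 693 lower than all other lines, CAOV-3 1440 and 1135, and OVCAR-3 1291 and 1211. SKOV-3 thus had fewer such genes than CAOV-3 and OVCAR-3 and more than DOV-13, a comparison of counts with no test. By gaps of at least 1 log2 unit, DOV-13 had more higher genes than SKOV-3 (142 against 126) and fewer lower ones (78 against 119).

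The called genes differed less between the treated and the untreated SKOV-3 array than between SKOV-3 and the other lines. The rule for a call selects for this, since it weighs line differences against the spread between treated and untreated arrays. The sizes given next are therefore only a description of the called genes. The median size of treated minus untreated in SKOV-3 was 0.097 over the 1664 called genes, against a median difference from the other lines of 0.959 in size. For 1323 of them the 2 SKOV-3 arrays were less than 0.2 log2 units apart, and for 3 they were 1 unit or more apart. Of the called genes, 687 had more than 1 probe set. For 356 of these all other probe sets also put SKOV-3 beyond all arrays on the same side, and for 93 at least 1 probe set differed in the opposite direction.

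Genes near the lowest levels of the array in 3 lines and high in SKOV-3 gave the largest gaps. CALB1 encodes calbindin, a calcium-binding protein best known from neurons and kidney tubules. CALB1 had log2 levels of 11.999 and 11.998 in SKOV-3, against 3.77 and 3.82 in DOV-13, 3.64 and 3.62 in CAOV-3 and 3.82 and 3.85 in OVCAR-3. The gap of 8.14 was the largest of all, with an adjusted p of 8.21e-09, and a second CALB1 probe set differed by 7.90. MMP1 encodes interstitial collagenase, which cuts fibrillar collagens. MMP1 had log2 levels of 11.44 and 11.26 in SKOV-3, against 3.90 and 3.88 in DOV-13, 3.91 and 3.73 in CAOV-3 and 3.73 and 3.65 in OVCAR-3. The gap was 7.34 and the adjusted p 1.46e-08. For both genes the 6 other arrays lay close together, near the lowest values of any probe set on these arrays (3.12 to 3.21), where RMA compresses differences.

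Next in order came SPANXB1, RRAD and SLCO1B3. SPANXB1 belongs to a family of X-linked genes normally expressed in testis, whose members are so alike that probes may read more than 1 of them. SPANXB1 had log2 levels of 9.76 and 9.67 in SKOV-3, against 4.09 and 4.11 in DOV-13, 3.74 and 3.87 in CAOV-3 and 3.73 and 3.89 in OVCAR-3. RRAD encodes a small GTPase that inhibits calcium channels. RRAD had log2 levels of 10.27 and 10.54 in SKOV-3, against 5.28 and 4.98 in DOV-13, 5.28 and 5.28 in CAOV-3 and 5.10 and 5.40 in OVCAR-3. SLCO1B3 encodes an organic anion transporter of hepatocytes that carries several drugs. SLCO1B3 had log2 levels of 9.27 and 9.84 in SKOV-3, against 4.41 and 4.43 in DOV-13, 4.39 and 4.37 in CAOV-3 and 4.38 and 4.40 in OVCAR-3. The gaps were 5.56 for SPANXB1, 4.87 for RRAD and 4.84 for SLCO1B3, and the untreated array was the higher SKOV-3 array for RRAD and SLCO1B3. With another variance prior (trend and robust) the test over line means called 5 genes, named here after their values were seen: CALB1, MMP1, SLCO1B3, SPANXB1 and the teneurin gene TENM1.

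**Figure D1:**
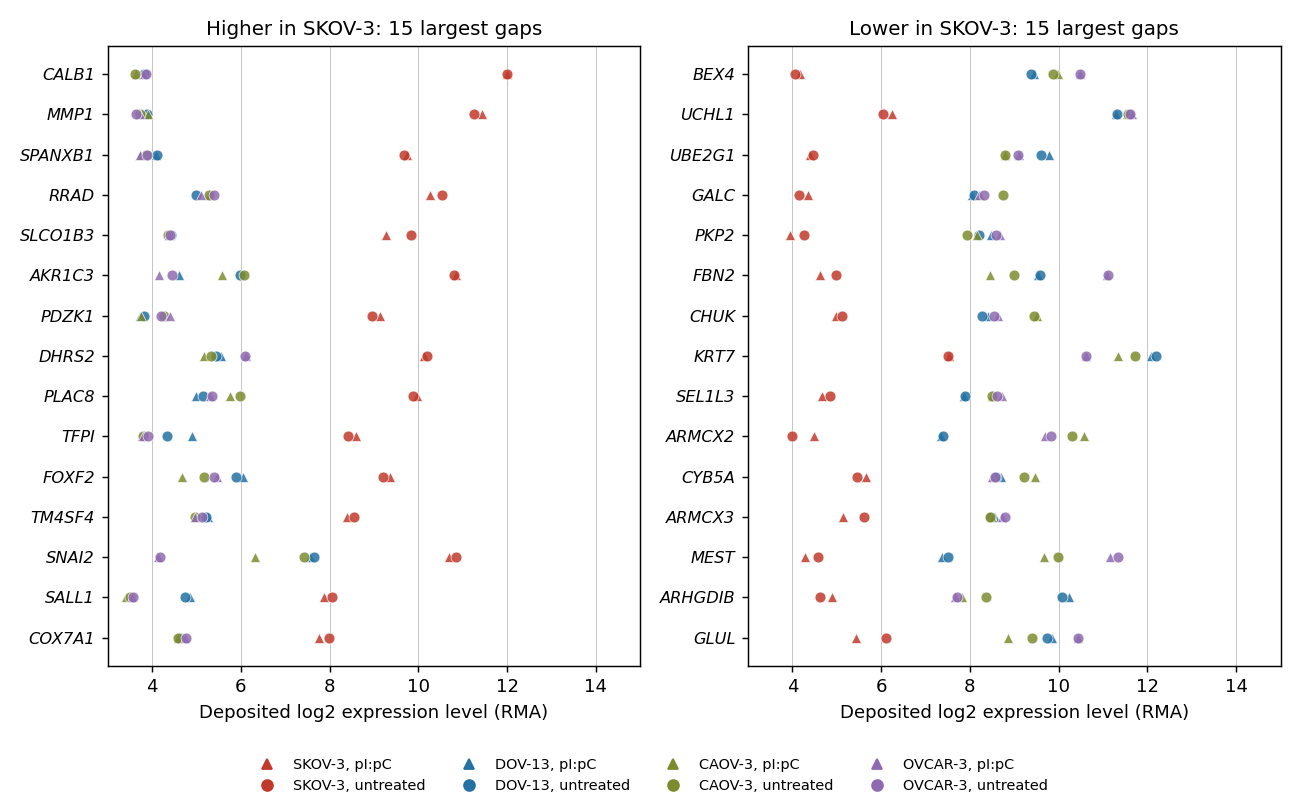
Deposited log2 level (x axis) of the 15 genes with the largest gap above (left) and below (right) all other arrays, 1 point per array, with colour for the cell line, triangles for pI:pC and circles for untreated cells. The red SKOV-3 points stand apart from all others in every row, as the rule for a call requires. The distance is 8.14 log2 units for CALB1 and 5.20 for BEX4, and the 2 SKOV-3 points of a gene lie close together.

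AKR1C3, PDZK1, DHRS2, PLAC8 and TFPI followed. AKR1C3 is an aldo-keto reductase that makes androgens and prostaglandins, and it is closely related in sequence to AKR1C1 and AKR1C2, so probes may not tell them fully apart. AKR1C3 had log2 levels of 10.84 and 10.80 in SKOV-3, against 4.62 and 5.98 in DOV-13, 5.58 and 6.07 in CAOV-3 and 4.16 and 4.45 in OVCAR-3. The other lines ranged more widely here than for CALB1, and the gap was 4.72. PDZK1, a scaffold for membrane transporters, had 9.15 and 8.95 in SKOV-3, against 3.72 to 4.40 elsewhere. DHRS2, a dehydrogenase/reductase, had 10.13 and 10.20, against 5.16 to 6.12. PLAC8, a small cysteine-rich protein first described in placenta, had 9.96 and 9.88, against 4.99 to 5.98, and TFPI, the inhibitor of the tissue factor pathway of coagulation, had 8.58 and 8.41, against 3.78 to 4.90. Gaps of these 4 genes were between 3.51 and 4.55.

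The last of the 15 held 3 transcription factor genes. FOXF2, a forkhead factor of mesenchyme, had 9.36 and 9.20 in SKOV-3, against 4.68 to 6.06 in the other lines. SNAI2 (Slug) is a repressor of E-cadherin. SNAI2 had log2 levels of 10.70 and 10.85 in SKOV-3, against 7.57 and 7.64 in DOV-13, 6.32 and 7.42 in CAOV-3 and 4.13 and 4.17 in OVCAR-3. SKOV-3 was highest, DOV-13 and CAOV-3 were intermediate and OVCAR-3 was lowest, and the gap was 3.06. SALL1, a zinc finger factor of kidney development, had 7.87 and 8.05 in SKOV-3, against 4.74 to 4.85 in DOV-13 and 3.41 to 3.57 in CAOV-3 and OVCAR-3. TM4SF4, a tetraspanin-like membrane protein, had 8.40 and 8.56 against 4.97 to 5.26, and COX7A1, a subunit of mitochondrial cytochrome c oxidase typical of muscle, had 7.75 and 7.99 against 4.57 to 4.77.

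Among the lower genes BEX4, UCHL1 and UBE2G1 had the largest gaps. BEX4 is an X-linked member of the brain-expressed family. BEX4 had log2 levels of 4.17 and 4.06 in SKOV-3, against 9.46 and 9.37 in DOV-13, 9.98 and 9.87 in CAOV-3 and 10.49 and 10.49 in OVCAR-3. UCHL1 is a deubiquitinating enzyme abundant in neurons. UCHL1 had log2 levels of 6.24 and 6.03 in SKOV-3, against 11.30 and 11.31 in DOV-13, 11.55 and 11.57 in CAOV-3 and 11.66 and 11.61 in OVCAR-3. UBE2G1 is a ubiquitin-conjugating enzyme. UBE2G1 had log2 levels of 4.40 and 4.47 in SKOV-3, against 9.79 and 9.61 in DOV-13, 8.80 and 8.79 in CAOV-3 and 9.11 and 9.07 in OVCAR-3. All 6 other arrays were well above the median gene of their array (6.65 to 6.76) for these genes, and the SKOV-3 arrays were below it. The gap was -5.20 for BEX4, -5.07 for UCHL1 and -4.33 for UBE2G1, with adjusted p-values of 4.19e-08, 6.09e-08 and 6.09e-08, and a second UBE2G1 probe set differed by -5.41.

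Lysosomal, junction and signalling genes were among the other lower ones. GALC, the lysosomal enzyme that breaks down galactosylceramide, had 4.34 and 4.15 in SKOV-3, against 8.04 to 8.75 in the other lines. PKP2 encodes plakophilin 2, which ties desmosomes to keratin filaments. PKP2 had log2 levels of 3.94 and 4.26 in SKOV-3, against 8.49 and 8.20 in DOV-13, 8.16 and 7.93 in CAOV-3 and 8.69 and 8.58 in OVCAR-3. CHUK encodes the alpha subunit of the IkB kinase, used in noncanonical NF-kB signalling. CHUK had log2 levels of 4.98 and 5.12 in SKOV-3, against 8.41 and 8.27 in DOV-13, 9.52 and 9.45 in CAOV-3 and 8.63 and 8.54 in OVCAR-3. In both genes the SKOV-3 arrays were more than 3 log2 units below every other array, with gaps of -3.67 for PKP2 and -3.15 for CHUK. KRT7 (keratin 7), a marker of ovarian and other simple epithelia, had 7.54 and 7.51, against 10.62 to 12.20, although a second, dim KRT7 probe set differed by only -0.04.

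FBN2, a fibrillin of elastic fibres, had 4.63 and 4.99 in SKOV-3, against 8.45 to 11.12 in the other lines. SEL1L3 had 4.66 and 4.85, against 7.87 to 8.72, and the cytochrome gene CYB5A 5.66 and 5.45, against 8.51 to 9.48. MEST, an imprinted gene of the hydrolase family, had 4.27 and 4.59, against 7.37 and 7.51 in DOV-13 and 9.68 to 11.34 in CAOV-3 and OVCAR-3. ARHGDIB, a gene best known from blood cells, had 4.90 and 4.63, against 10.23 and 10.07 in DOV-13 and 7.66 to 8.37 in CAOV-3 and OVCAR-3. GLUL, the glutamine synthetase gene, had 5.44 and 6.11, against 8.85 to 10.45. For each of these 6 genes the SKOV-3 arrays were lowest and the order of the other lines varied.

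BEX4, ARMCX2 and ARMCX3 of that list are X-linked neighbours. The ARMCX, BEX, TCEAL and GPRASP genes form a cluster on the long arm of the X chromosome that is specific to placental mammals, and many of its members are expressed in brain. The array measured 15 of them, and 10 were called lower in SKOV-3, 0 higher and 5 neither. Of all genes 6.16% were called lower and 7.75% higher. The group was picked after these values were seen, so its count is a description. ARMCX2 had 4.49 and 3.997 in SKOV-3, against 7.36 and 7.40 in DOV-13, 10.57 and 10.31 in CAOV-3 and 9.70 and 9.83 in OVCAR-3. BEX1 had 5.54 and 5.17 in SKOV-3, against 10.80 and 10.92 in DOV-13, 8.17 and 8.33 in CAOV-3 and 9.89 and 9.98 in OVCAR-3. ARMCX1 had 3.78 and 4.49 in SKOV-3, against 8.35 and 8.36 in DOV-13, 8.16 and 7.81 in CAOV-3 and 7.06 and 7.45 in OVCAR-3. SKOV-3 was lowest throughout, and which of the other lines was highest differed from gene to gene. ARMCX6, ARMCX3, ARMCX5, GPRASP3, TCEAL9 and BEX3 were the other called members, with gaps from -2.83 for ARMCX3 to -0.74 for TCEAL9. A second ARMCX6 probe set differed by only -0.01.

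The cluster was not low as a whole. TCEAL4 had 10.58 and 10.63 in SKOV-3, against 10.18 and 10.22 in DOV-13, 9.90 and 9.92 in CAOV-3 and 10.68 and 10.88 in OVCAR-3. TCEAL1 had 8.72 and 8.81 in SKOV-3, against 7.72 and 7.78 in DOV-13, 8.88 and 8.93 in CAOV-3 and 8.46 and 8.64 in OVCAR-3. Here SKOV-3 lay inside the range of the other lines, and at levels well above the median gene. TCEAL2 had 3.89 and 3.97 in SKOV-3, 4.10 and 3.95 in DOV-13 and 4.20 and 4.15 in OVCAR-3, and only CAOV-3 stood out with 7.71 and 7.80. ARMCX4 was between 4.44 and 4.69 on all arrays.

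**Figure D2:**
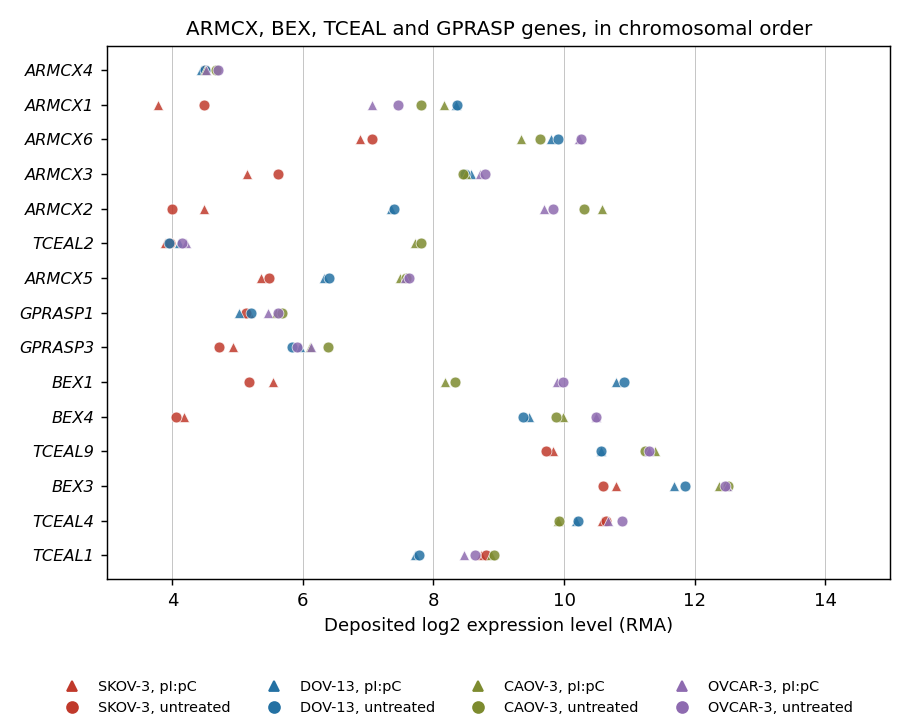
Deposited log2 level (x axis) of the 15 measured ARMCX, BEX, TCEAL and GPRASP genes in their order along the X chromosome (y axis), 1 point per array, with colour for the cell line, triangles for pI:pC and circles for untreated cells. SKOV-3 lies left of all other points in 10 rows and overlaps them for ARMCX4, TCEAL2, GPRASP1, TCEAL4 and TCEAL1.

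The promoter windows of 6 of these genes are shown, from 250 bases before to 50 bases after the start of the gene in RefSeq (GRCh38.p14), 5′ to 3′ on the gene's own strand. Capitals mark the E-box CACGTG, a palindrome, so that 1 search covers both strands, which is the core sequence bound by basic helix-loop-helix factors. The first 5 windows are of genes called lower, and the window of TCEAL4, which was not called, is given for comparison. They lie at chrX:101550297-101550596 (+ strand) for ARMCX1, chrX:101659801-101660100 (- strand) for ARMCX2, chrX:101617951-101618250 (- strand) for ARMCX6, chrX:103064122-103064421 (- strand) for BEX1, chrX:103214842-103215141 (+ strand) for BEX4 and chrX:103585265-103585564 (+ strand) for TCEAL4.
ARMCX1: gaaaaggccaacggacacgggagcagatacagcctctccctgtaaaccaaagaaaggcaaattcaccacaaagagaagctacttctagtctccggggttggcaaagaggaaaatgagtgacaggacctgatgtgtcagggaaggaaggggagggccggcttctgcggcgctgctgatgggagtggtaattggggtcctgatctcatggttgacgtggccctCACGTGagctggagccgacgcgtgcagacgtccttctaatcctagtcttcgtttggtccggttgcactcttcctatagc
ARMCX2: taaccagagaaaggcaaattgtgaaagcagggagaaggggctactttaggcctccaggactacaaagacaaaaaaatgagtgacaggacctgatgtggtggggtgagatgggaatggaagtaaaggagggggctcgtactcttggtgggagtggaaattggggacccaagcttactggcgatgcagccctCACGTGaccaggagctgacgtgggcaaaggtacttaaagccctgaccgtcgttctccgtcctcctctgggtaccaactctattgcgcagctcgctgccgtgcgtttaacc
ARMCX6: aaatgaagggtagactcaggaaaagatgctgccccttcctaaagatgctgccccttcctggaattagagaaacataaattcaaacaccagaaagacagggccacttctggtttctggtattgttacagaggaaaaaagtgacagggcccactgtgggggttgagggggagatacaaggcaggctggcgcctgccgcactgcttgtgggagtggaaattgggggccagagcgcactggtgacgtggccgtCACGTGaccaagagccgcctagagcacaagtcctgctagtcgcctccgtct
BEX1: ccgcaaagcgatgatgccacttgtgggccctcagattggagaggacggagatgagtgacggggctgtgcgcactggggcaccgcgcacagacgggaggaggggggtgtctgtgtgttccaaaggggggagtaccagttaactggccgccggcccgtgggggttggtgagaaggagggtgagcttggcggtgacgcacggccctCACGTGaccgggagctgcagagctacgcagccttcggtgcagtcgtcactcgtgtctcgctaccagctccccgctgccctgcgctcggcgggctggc
BEX4: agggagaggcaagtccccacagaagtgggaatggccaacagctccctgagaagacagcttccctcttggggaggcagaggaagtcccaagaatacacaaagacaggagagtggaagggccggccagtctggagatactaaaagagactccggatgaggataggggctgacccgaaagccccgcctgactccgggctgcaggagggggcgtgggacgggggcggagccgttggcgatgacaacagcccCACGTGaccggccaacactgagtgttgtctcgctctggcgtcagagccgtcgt
TCEAL4: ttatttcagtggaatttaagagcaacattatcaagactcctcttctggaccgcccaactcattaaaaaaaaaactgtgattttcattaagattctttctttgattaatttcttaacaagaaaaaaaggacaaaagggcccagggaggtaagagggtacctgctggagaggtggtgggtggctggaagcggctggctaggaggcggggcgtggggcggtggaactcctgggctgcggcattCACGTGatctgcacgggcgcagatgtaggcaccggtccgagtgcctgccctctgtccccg

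The E-box began at position -29 relative to the start in ARMCX1, -60 in ARMCX2, -1 in ARMCX6, -47 in BEX1, -3 in BEX4 and -10 in TCEAL4. Of the 15 genes, 14 had a promoter in the table. The motif was in 6 of the 9 called lower and in 2 of the 5 not called (TCEAL4 and TCEAL2), against 7.26% of all 35116 promoter windows searched (2548). It was chosen after the sequences were seen, and a match is only a match of letters. ARMCX4, GPRASP3, BEX4, BEX3 and TCEAL1 have more than 1 start in the table, and the first was used for these counts and for the window shown, whereas the share over all windows takes every start.

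Along the genome the called genes were unevenly spread. On chromosome 7, 115 of 540 measured genes were called lower in SKOV-3 (21.3%) and 4 higher (0.741%). On chromosome 16 the pattern was the other way round, with 93 of 524 genes higher (17.7%) and 8 lower (1.53%). The shares for all genes were the 7.75% higher and 6.16% lower given above, and no test was run, since neighbouring genes are not independent and the chromosomes were picked for their counts. In the other lines the same rule called 7 genes lower on chromosome 7 in DOV-13, 9 in CAOV-3 and 48 in OVCAR-3, and 29, 39 and 21 higher on chromosome 16. On chromosome 16 it called 8 genes lower in DOV-13, 72 in CAOV-3 and 106 in OVCAR-3. Over all 11963 genes the rule called 838 higher and 693 lower in DOV-13, 1440 and 1135 in CAOV-3, and 1291 and 1211 in OVCAR-3. Uneven spread was not particular to SKOV-3. CAOV-3 had 109 of 452 genes lower on chromosome 9. DOV-13 had 56 of 214 higher on chromosome 13, and OVCAR-3 146 of 655 higher on chromosome 3.

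The median gene of chromosome 7 in SKOV-3 was lower than in each other line, by a log2 difference of -0.23 against DOV-13, -0.28 against CAOV-3 and -0.11 against OVCAR-3. For chromosome 16 the median differences were 0.06, 0.25 and 0.37. The medians over all genes were 0.01, 0.07 and 0.03 in the same order of lines. Chromosomes 4 and 3 followed among the lower ones, with 12.6% and 10.2% of their genes called.

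**Figure D3:**
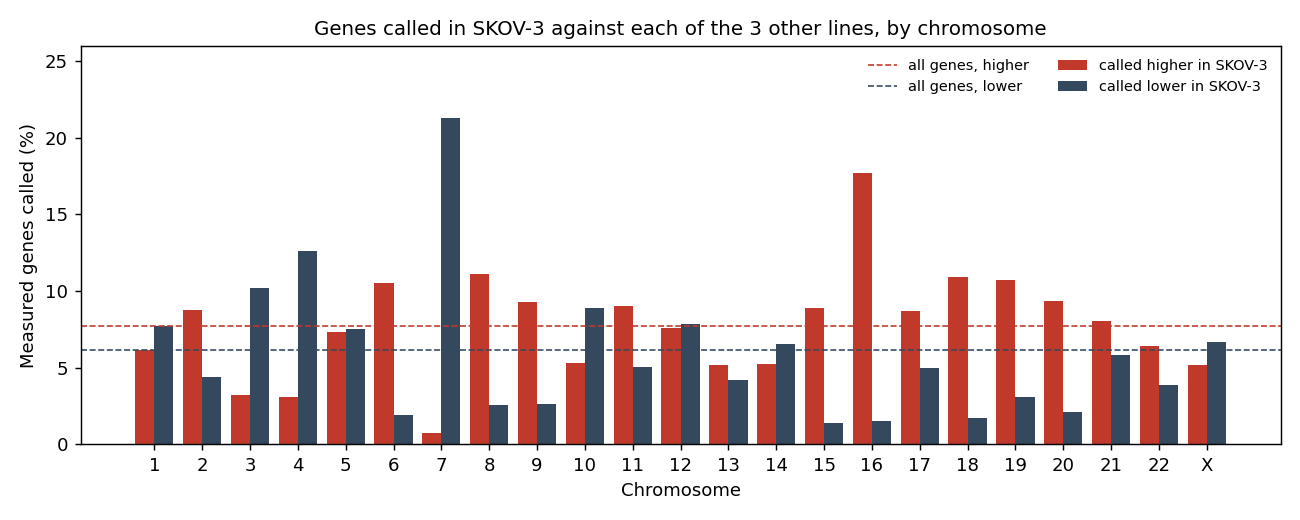
Percent of the measured genes of each chromosome (y axis) called higher (red) or lower (dark) in SKOV-3 than in each of the other lines, with the shares over all genes as dashed lines. Chromosome 7 has the tallest lower bar, 21.3%, and chromosome 16 the tallest higher bar, 17.7%.

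The genes with the largest gaps on chromosome 7, named after their values were seen, had varied roles. Besides MEST they were SDHAF3, an assembly factor of succinate dehydrogenase, with 4.83 and 4.78 in SKOV-3 against 7.47 to 8.40 elsewhere, and AUTS2, a nuclear regulator of neural development, with 4.42 and 4.59 against 7.11 to 10.30. ASNS and PSPH, the synthetic enzymes of asparagine and serine, had 6.97 and 7.08 against 9.27 to 10.53, and 6.03 and 6.91 against 8.49 to 8.96. On chromosome 16, besides RRAD and SALL1, CDH16 (kidney cadherin) had 7.97 and 7.87 in SKOV-3 against 4.84 to 5.35, and CES2, a carboxylesterase that activates prodrugs, 9.85 and 9.84 against 7.82 to 8.02. The SKOV-3 arrays lay beyond all others for these genes, as the rule for a call requires.

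Called genes also lay in runs of measured neighbours. There were 30 runs of 3 or more genes called higher and 16 called lower. The longest had 8 genes, SMURF1, ARPC1A, ARPC1B, PDAP1, BUD31, CPSF4, ZNF394 and ZKSCAN5 on chromosome 7, all lower. This run rests on the brightest probe set of each gene. Another probe set differed by 0.14 for PDAP1 and by 0.06 for BUD31. The other probe sets of SMURF1 differed by -0.28 and -0.23 without lying below all other arrays, and that of ZKSCAN5 by -0.95. Among the runs, S100A5, S100A4, S100A3 and S100A2 on chromosome 1, calcium-binding proteins, were higher, with a median gap of 2.02. AKR1C1, AKR1C2 and AKR1C3 on chromosome 10 were higher together with the zinc finger gene KLF6, and CDH16, RRAD, CIAO2B and CES2 formed a run on chromosome 16. The AKR1C genes are closely related in sequence, so their probe sets may partly read the same signal. S100A2 had 12.48 and 12.24 in SKOV-3, against 7.85 to 10.22 in the other lines, and S100A3 6.96 and 7.19 against 4.53 to 4.94. PSG genes, which encode pregnancy-specific glycoproteins and are nearly alike in sequence, made 2 runs of 3 higher genes on chromosome 19, which cannot be told apart from a single gene read by several probe sets.

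A list of 34 genes of the ERBB2 region on chromosome 17, ERBB2 included, had 26 measured members. Of these 9 were called higher (34.6%, against 7.75% of all genes), namely ERBB2 and 8 neighbours, and 1 lower (3.85%, against 6.16%). The median difference from the other lines was 0.44, against 0.02 over all genes. STARD3, a cholesterol carrier of endosomes, and PGAP3, which remodels GPI anchors, had the widest gaps of the called members after ERBB2. STARD3 had log2 levels of 7.66 and 7.66 in SKOV-3, against 6.52 and 6.39 in DOV-13, 6.003 and 5.88 in CAOV-3 and 5.71 and 5.83 in OVCAR-3. PGAP3 had log2 levels of 7.97 and 7.996 in SKOV-3, against 6.80 and 6.94 in DOV-13, 6.33 and 6.68 in CAOV-3 and 6.60 and 6.99 in OVCAR-3. Both were higher by more than 1 log2 unit than in each other line on average, and DOV-13 was the nearest line for STARD3. The other genes called higher were GSDMB, LASP1, CDK12, PSMD3, MSL1 and MED1, with gaps from 0.68 for GSDMB to 0.19 for MED1.

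GRB7, an adaptor gene that lies next to ERBB2, was not called. GRB7 had log2 levels of 6.36 and 6.13 in SKOV-3, against 5.87 and 6.08 in DOV-13, 6.42 and 6.36 in CAOV-3 and 6.42 and 6.18 in OVCAR-3. SKOV-3 was within the range of the other lines. PNMT and TCAP, on the other side, also overlapped the other lines, PNMT at 5.46 and 5.18 in SKOV-3 against 5.11 to 5.46, and TCAP at 6.33 and 6.07 against 5.82 to 6.26. GRB7, PNMT and TCAP were dim, below the median gene on every array, and RMA compresses differences of dim probe sets. IGFBP4 was lower, at 6.25 and 5.63 in SKOV-3 against 6.87 to 8.14. TOP2A was above all other arrays but not called, at 11.51 and 11.59 against 10.26 to 11.36, with an adjusted p of 0.25 for the contrast with DOV-13.

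**Figure D4:**
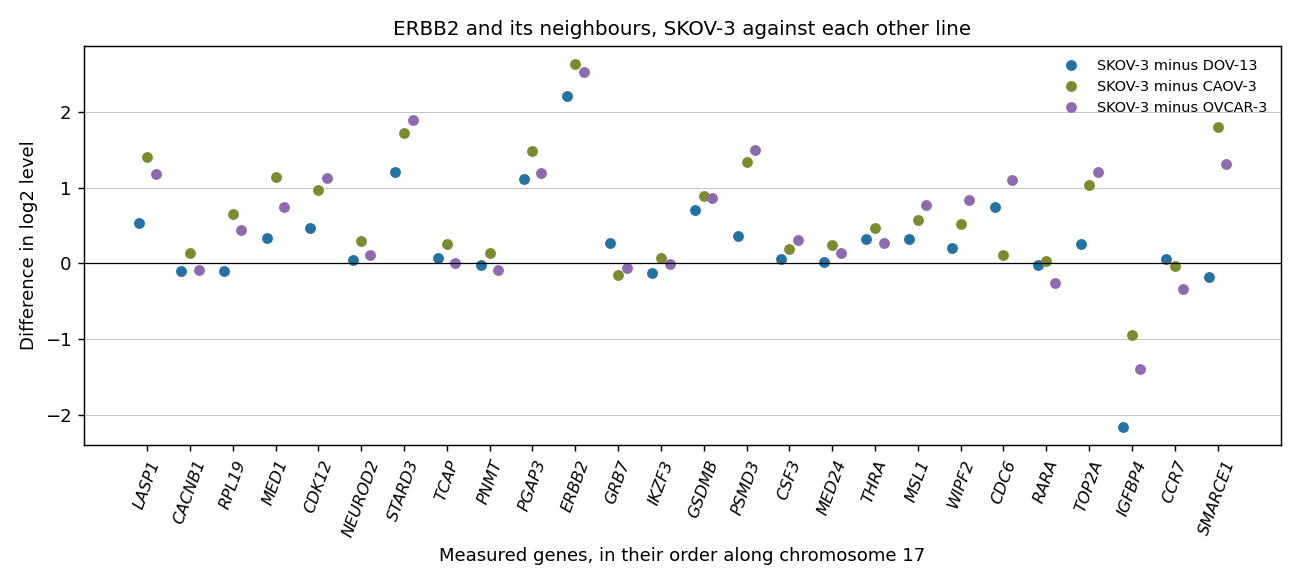
Difference in log2 level between SKOV-3 and each other line (y axis, colour for the line SKOV-3 is set against) for the 26 measured genes of the list, ERBB2 included, in their order along chromosome 17. Averaged over the 3 lines ERBB2 has the largest positive difference and STARD3 and PGAP3 follow, while GRB7 lies near 0 and IGFBP4 is the only gene called lower.

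Of 27 measured ERBB receptors, ligands and adaptors, 1 was called higher (3.70%, against 7.75% of all genes) and 2 lower (7.41%, against 6.16%), and the median difference was -0.09. EREG (epiregulin), a ligand of EGFR and ERBB4, was the higher one. EREG had log2 levels of 8.56 and 8.78 in SKOV-3, against 3.54 and 3.61 in DOV-13, 8.10 and 6.41 in CAOV-3 and 3.70 and 3.64 in OVCAR-3. Only CAOV-3 came near it, and mainly in its treated array. LRIG1, a negative regulator of ERBB receptors, was lower at 5.44 and 5.34 in SKOV-3 against 6.22 to 7.70, as was PIK3R3, a regulatory subunit of PI3 kinase, at 5.74 and 5.61 against 6.36 to 8.70. ERBB3 had 4.56 and 4.46 in SKOV-3, 4.46 and 4.56 in DOV-13 and 8.27 to 8.55 in CAOV-3 and OVCAR-3, so SKOV-3 and DOV-13 overlapped. EGFR was within the range of the other lines, at 9.68 and 9.68 against 9.14 to 10.86, and its sign of difference depended on the probe set.

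Among 39 other receptor tyrosine kinase genes and partners 5 were higher (12.8%, against 7.75% of all genes) and 0 lower (6.16% of all genes). The median difference of the list was 0.07. KIT, the receptor for stem cell factor, had the largest gap. KIT had log2 levels of 8.43 and 8.59 in SKOV-3, against 4.82 and 4.77 in DOV-13, 4.82 and 5.55 in CAOV-3 and 4.92 and 4.996 in OVCAR-3. SKOV-3 was more than 2.8 log2 units above the nearest array, untreated CAOV-3. IGFBP6, a binding protein of insulin-like growth factor 2, had 10.47 and 10.33 in SKOV-3 against 6.54 to 9.48. TYRO3, EFNB1 and PTK7 were the other 3, with gaps of 0.41, 0.40 and 0.18.

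The median difference from the other lines was 1.01 for mesenchymal markers and -1.16 for epithelial genes, against 0.02 over all genes. Of 36 measured mesenchymal markers 9 were called higher (25.0%, against 7.75% of all genes) and 0 lower (6.16% of all genes). Against DOV-13 alone the median was -0.05, with 9 genes higher and 9 lower, whereas it was 1.03 against CAOV-3 and 1.48 against OVCAR-3. The 9 called genes were SNAI2, S100A4, FBN1, TGFBI, FN1, PLAU, ZEB1, TAGLN and LOXL1.

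S100A4 encodes a calcium-binding protein associated with motile cells. S100A4 had log2 levels of 12.75 and 12.64 in SKOV-3, against 6.12 and 5.80 in DOV-13, 9.67 and 9.73 in CAOV-3 and 10.22 and 10.42 in OVCAR-3. DOV-13 was the lowest line here, unlike for most of these genes. FN1 (fibronectin) had 12.20 and 11.998 in SKOV-3 against 9.95 to 10.87, TGFBI, a secreted matrix protein induced by TGF-beta, 11.95 and 11.97 against 5.86 to 10.62, and FBN1 (fibrillin 1) 8.55 and 8.77 against 5.30 to 7.03. ZEB1, a repressor of E-cadherin, had 8.36 and 8.42 in SKOV-3, 7.65 and 7.72 in DOV-13 and 5.14 to 5.50 in CAOV-3 and OVCAR-3. VIM (vimentin) was not called, since SKOV-3 with 13.58 and 13.60 and DOV-13 with 13.49 and 13.49 did not pass the test against each other (adjusted p = 0.724), while CAOV-3 and OVCAR-3 had 5.30 to 7.53.

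Of 27 measured epithelial genes 1 was called higher (3.70%) and 2 lower (7.41%), beside 7.75% and 6.16% of all genes. The median difference of the list was 0.16 against DOV-13, -1.64 against CAOV-3 and -1.88 against OVCAR-3. The 2 lower genes were PKP2, described above, and OCLN (occludin of tight junctions), with 4.96 and 5.25 in SKOV-3 against 6.13 to 7.94. DSG2, a desmosomal cadherin, was higher, with 11.11 and 11.20 against 10.001 to 10.39. CDH1 (E-cadherin) had 3.89 and 3.74 in SKOV-3, 3.96 and 3.58 in DOV-13 and 9.41 to 9.70 in the other lines, so it did not separate SKOV-3 from DOV-13. EPCAM set SKOV-3 between the others. EPCAM had log2 levels of 8.44 and 8.50 in SKOV-3, against 5.94 and 5.42 in DOV-13, 12.55 and 12.58 in CAOV-3 and 12.11 and 11.90 in OVCAR-3. It was above DOV-13 and below CAOV-3 and OVCAR-3, in contrasts that all passed the test (largest adjusted p = 8.02e-06).

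Of 12 keratins 2 were called higher and 2 lower, 16.7% each way, beside 7.75% higher and 6.16% lower of all genes. Beside KRT7, KRT18 was lower at 11.52 and 11.62 in SKOV-3 against 12.24 to 12.59, while its usual partner KRT8 was higher at 11.54 and 11.52 against 10.53 to 10.95. KRT14 was called higher at 4.55 and 4.68 against 4.07 to 4.28, a level near background. Of 28 collagens 7 were higher (25.0%, against 7.75% of all genes) and 2 lower (7.14%, against 6.16%), with a median difference of 0.12. COL1A2, a chain of collagen I, had 8.34 and 7.74 in SKOV-3 against 5.49 to 6.24, and COL5A1, of collagen V, 9.69 and 9.63 against 6.40 to 8.63. COL4A5 was lower at 4.43 and 4.52, against 5.29 and 5.32 in DOV-13 and 8.93 to 10.91 in CAOV-3 and OVCAR-3, and COL6A1 at 5.81 and 5.46 against 6.77 to 8.06.

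The cadherin superfamily had 3 of 24 measured genes higher (12.5%) and 1 lower (4.17%), beside 7.75% and 6.16% of all genes. CDH10, a cadherin of brain, had 8.29 and 8.24 in SKOV-3 against 4.32 to 5.45, CDH16 is given above, and PCDH9 had 7.82 and 7.75 against 5.05 to 5.45. PCDH1 was lower with a gap of -0.31. Of 26 integrin and laminin genes LAMC1 alone was called, higher at 11.47 and 11.32 in SKOV-3 against 8.25 to 10.96. That made 3.85% of the list higher, beside 7.75% of all genes.

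**Figure D5:**
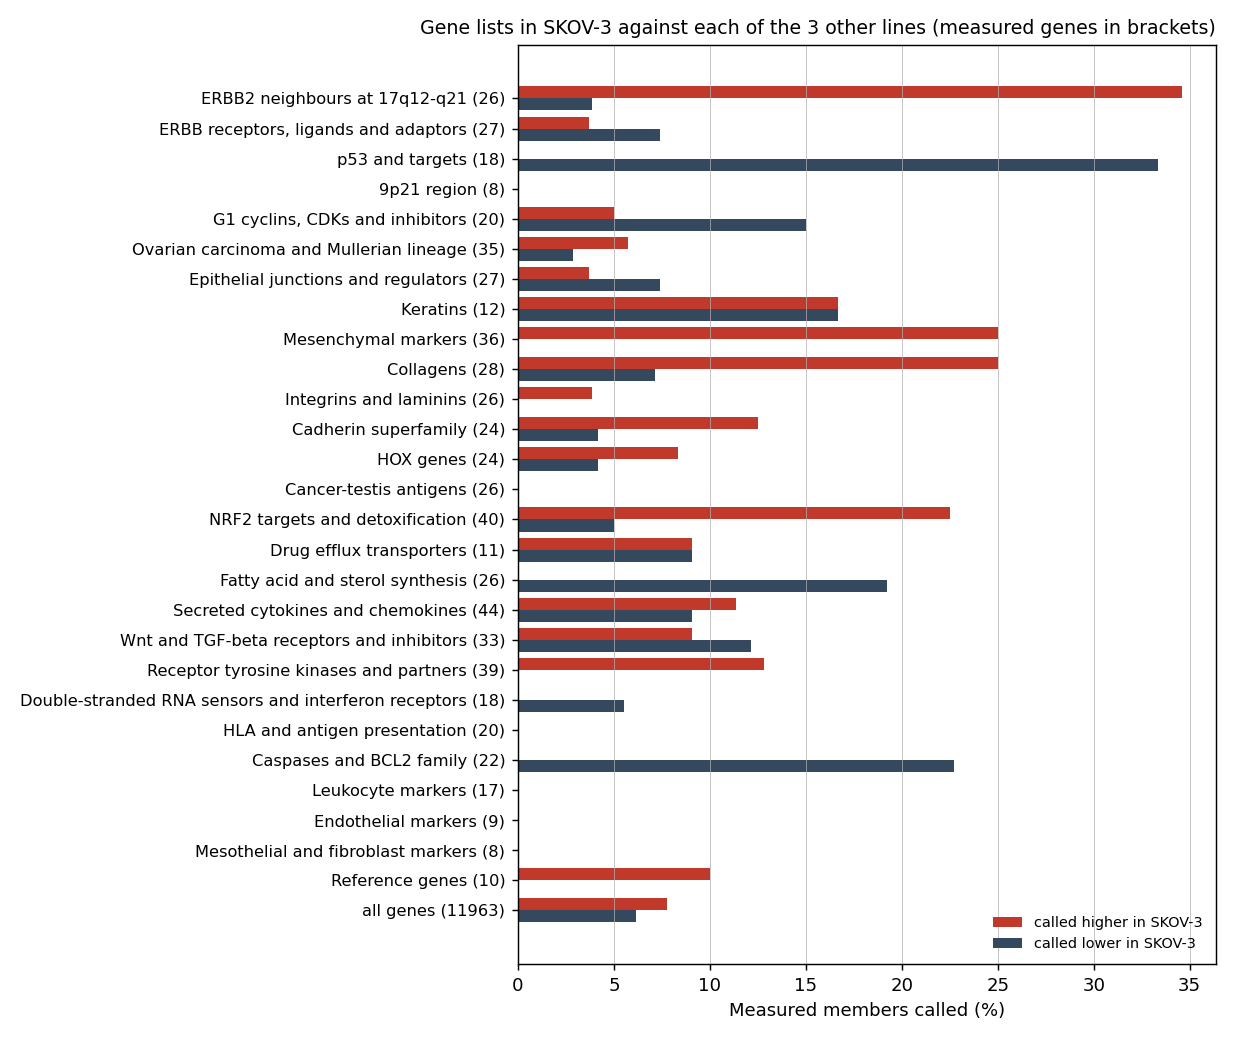
Percent of the measured members of each gene list (x axis) called higher (red) or lower (dark) in SKOV-3 than in each of the other lines, with the number of measured genes in brackets and all genes in the bottom row. ERBB2 neighbours, mesenchymal markers, collagens and NRF2 targets have the longest red bars, and the p53, caspase and BCL2, and lipid synthesis lists have the longest dark bars.

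Of 35 measured markers of the ovarian and Mullerian lineage 2 were higher (5.71%, against 7.75% of all genes) and 1 lower (2.86%, against 6.16%), with a median difference of -0.64. MECOM, a zinc finger factor often gained in ovarian cancer, had 10.13 and 10.18 in SKOV-3 against 4.54 to 8.34. SPP1 (osteopontin) had 10.04 and 10.12, against 8.64 and 9.23 in DOV-13 and 4.57 to 4.83 in CAOV-3 and OVCAR-3. LYPD1 was lower at 5.57 and 5.46 against 7.98 to 11.56.

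The usual markers of serous carcinoma did not set SKOV-3 apart from all lines. PAX8, the Mullerian transcription factor, had 10.16 and 10.01 in SKOV-3, which was above DOV-13 and CAOV-3 (8.06 to 8.73) and below OVCAR-3 (10.54 and 10.60). WT1 had 4.97 and 5.08 in SKOV-3, MUC16 (CA125) 4.26 and 4.13, and both genes were high only in OVCAR-3, at 6.94 and 6.78 for WT1 and 9.52 and 9.59 for MUC16. ESR1 lay between 5.81 and 6.38 on all arrays, and SKOV-3 overlapped the others. HOX genes, which give positional identity, had 2 of 24 higher and 1 lower, shares of 8.33% and 4.17%, near those of all genes. HOXB6 and HOXB7 were the higher ones, HOXB6 at 10.20 and 10.10 in SKOV-3 against 9.05 and 9.33 in DOV-13 and 4.53 to 6.62 in the others. HOXC6 was lower at 5.25 and 4.88 against 7.11 to 10.73.

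Of 18 measured genes of the p53 response 6 were called lower (33.3%, against 6.16% of all genes) and 0 higher (7.75% of all genes), with a median difference of -0.66. The median was -1.49 against DOV-13, -0.40 against CAOV-3 and -0.03 against OVCAR-3, so OVCAR-3 was near SKOV-3 for the middle of the list. CDKN1A, the p21 inhibitor of cyclin-dependent kinases, had the order DOV-13, CAOV-3, OVCAR-3, SKOV-3. CDKN1A had log2 levels of 6.39 and 6.57 in SKOV-3, against 10.13 and 10.23 in DOV-13, 8.91 and 8.87 in CAOV-3 and 6.98 and 7.21 in OVCAR-3. TIGAR, which lowers glycolytic flux, had 5.57 and 6.17 in SKOV-3 against 7.45 to 9.44. CCNG1 (cyclin G1) had 9.24 and 9.29 against 9.94 to 11.52, ZMAT3 6.25 and 6.34 against 7.03 to 8.73, the death receptor gene TNFRSF10B 8.63 and 8.60 against 9.19 to 10.21, and MDM2, the ubiquitin ligase of p53, 4.67 and 4.61 against 4.94 to 6.75. The gaps of these 6 genes were between -1.28 for TIGAR and -0.28 for MDM2. The MDM2 probe set was dim outside DOV-13. Its 4 other probe sets differed by -0.56 to 0.03 and none lay below all other arrays, whereas the 2 others of TNFRSF10B did.

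Of 20 measured regulators of the start of S phase 1 was higher (5.00%, against 7.75% of all genes) and 3 were lower (15%, against 6.16%), with a median difference of -0.04. CDKN1B, the p27 inhibitor, was the clearest. CDKN1B had log2 levels of 7.43 and 7.42 in SKOV-3, against 9.08 and 9.09 in DOV-13, 9.23 and 9.28 in CAOV-3 and 9.71 and 9.71 in OVCAR-3. The gap was -1.65, with an adjusted p of 5.29e-06. CCND1 (cyclin D1) was lower at 8.90 and 9.02 in SKOV-3 against 9.49 to 10.56, and E2F5 at 5.96 and 6.32 against 6.58 to 8.50. E2F1 was higher at 7.81 and 7.86 against 7.22 to 7.45.

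No gene of 8 measured at 9p21 was called, beside 7.75% higher and 6.16% lower of all genes. CDKN2A, which encodes p16, had 6.68 and 6.69 in SKOV-3 and 6.69 and 6.48 in DOV-13, which overlapped, against 10.18 to 11.15 in CAOV-3 and OVCAR-3. MTAP, its neighbour, had 6.21 and 6.43 in SKOV-3, against 4.66 and 4.63 in DOV-13 and 6.74 and 6.67 in OVCAR-3. DOV-13 stood furthest apart. The difference from OVCAR-3 was small, at -0.385, with an adjusted p of 0.046 by limma.

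Among 22 measured caspases and BCL2 family members 5 were lower (22.7%, against 6.16% of all genes) and 0 higher (7.75% of all genes), with a median difference of -0.13. BID links death receptors to mitochondria. BID had log2 levels of 6.25 and 6.47 in SKOV-3, against 9.27 and 9.02 in DOV-13, 10.73 and 10.19 in CAOV-3 and 9.78 and 9.77 in OVCAR-3. Each SKOV-3 array was more than 2.5 log2 units below every other array. CASP4, an inflammatory caspase, had 4.99 and 5.21 in SKOV-3 against 6.72 to 8.32. CASP6, CASP8 and MCL1 had smaller gaps of -0.81, -0.34 and -0.57. CASP8, which starts the death receptor pathway, had 7.54 and 7.60 against 7.94 to 8.65. The 4 other probe sets of MCL1 differed by -0.08 to 0.25, and none lay below all other arrays. Nor did the second probe sets of CASP4 (-0.40) and CASP8 (-0.42), whereas those of BID (-3.56) and CASP6 (-1.40) did.

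The agent pI:pC is read by sensors of double-stranded RNA. Of 18 such sensors and interferon receptors 0 were higher (7.75% of all genes) and 1 was lower (5.56%, near the 6.16% of all genes), IFNGR2, at 9.07 and 8.97 in SKOV-3 against 9.41 or more in the other lines. Of 20 HLA and antigen presentation genes none was called by limma, though the median difference was -1.52 against CAOV-3, with 15 genes lower at an adjusted p under 0.05, and 0.19 against OVCAR-3.

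Targets of NRF2, the transcription factor of the oxidant response, and other detoxification genes had 9 of 40 higher (22.5%, against 7.75% of all genes) and 2 lower (5.00%, against 6.16%), while the median difference was -0.02. AKR1C1 and AKR1C2 encode aldo-keto reductases. AKR1C3 is also among the 9, and the probe sets of these related genes may partly read the same signal. Of 2 other AKR1C1 probe sets 1 differed by only 0.10 and the other by 2.88, and a second AKR1C2 probe set by 3.06. AKR1C2 had log2 levels of 9.49 and 9.33 in SKOV-3, against 6.21 and 6.28 in DOV-13, 6.69 and 7.03 in CAOV-3 and 6.32 and 6.21 in OVCAR-3. AKR1C1 had log2 levels of 9.96 and 9.66 in SKOV-3, against 6.16 and 6.64 in DOV-13, 7.11 and 7.80 in CAOV-3 and 6.46 and 6.49 in OVCAR-3. Both genes had untreated CAOV-3 as the nearest array, with gaps of 2.30 for AKR1C2 and 1.85 for AKR1C1. CYP1B1, a cytochrome that oxidises estrogens and carcinogens, had 9.62 and 9.39 in SKOV-3 against 4.81 to 8.63. TALDO1, of the pentose phosphate pathway, and SLC7A11, the cystine carrier, were higher with gaps of 0.67 and 0.61, and so were PIR, HMOX1 and ABCC2 with gaps of 0.46, 0.23 and 0.17. The lower genes were the glutathione transferases GSTM3, at 4.90 and 4.87 in SKOV-3 against 6.80 to 9.80, and GSTA4, at 6.09 and 6.03 against 6.76 to 7.40. Of 11 drug efflux transporters ABCC1 was called higher and ABCA3 lower, with gaps of 0.19 and -0.35. These were 9.09% each way, beside 7.75% higher and 6.16% lower of all genes.

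Lipid synthesis genes had 5 of 26 lower (19.2%, against 6.16% of all genes) and 0 higher (7.75% of all genes), with a median difference of -0.21. ELOVL6, which lengthens fatty acids, had the largest gap. ELOVL6 had log2 levels of 5.57 and 5.94 in SKOV-3, against 8.19 and 8.13 in DOV-13, 7.90 and 7.76 in CAOV-3 and 8.88 and 8.84 in OVCAR-3. FADS2, a desaturase, had 7.11 and 7.08 in SKOV-3 against 8.24 to 9.27. SREBF1, the transcription factor that drives fatty acid synthesis, had 6.22 and 6.32 against 6.99 to 7.74. SCD and DHCR7 were lower with gaps of -0.52 and -0.44, and in both the treated SKOV-3 array was the lower one.

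Secreted factors had 5 of 44 higher (11.4%) and 4 lower (9.09%), shares near the 7.75% and 6.16% of all genes, with a median difference of -0.13. BMP2 had 7.12 and 7.12 in SKOV-3 against 4.30 to 5.08, and WNT7A 7.36 and 7.71 against 5.89 to 6.44. VEGFA, FGF2 and WNT7B were the other higher ones, VEGFA at 9.74 and 9.86 against 7.81 to 9.06. WNT5A, a ligand of noncanonical Wnt signalling, was lower. WNT5A had log2 levels of 4.95 and 5.35 in SKOV-3, against 7.53 and 7.49 in DOV-13, 7.35 and 7.70 in CAOV-3 and 9.62 and 9.79 in OVCAR-3. The gap was -2.002. The chemokines CXCL2 and CXCL6 were lower with gaps of -0.18 and -0.33, and FST (follistatin) with -0.12.

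Receptors and inhibitors of Wnt and TGF-beta signalling had 3 of 33 higher (9.09%, against 7.75% of all genes) and 4 lower (12.1%, against 6.16%), with a median difference of 0.03. SFRP1, a secreted Wnt inhibitor, had 9.44 and 9.39 in SKOV-3, against 4.92 and 5.06 in DOV-13 and 6.75 to 8.36 in the others, and the receptor FZD2 and the inhibitor SMAD7 were also higher. TGFB2, SMAD3, TGFBR2 and LRP6 were lower, SMAD3 at 7.10 and 7.11 against 7.96 to 8.75. Cancer-testis antigens other than SPANXB1, which was not on the list, had 0 of 26 called, beside 7.75% higher and 6.16% lower of all genes. Of the 26, 2 lay above and 1 below all other arrays without being called.

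Markers of cells that a line should not hold were low. None of the 17 leukocyte, 9 endothelial and 8 mesothelial and fibroblast markers was called either way by limma. Of all genes 7.75% were called higher and 6.16% lower. Their median log2 levels were 4.89 to 5.00, 5.31 to 5.49 and 5.54 to 5.59 on the SKOV-3 arrays, and 4.79 to 4.99, 5.25 to 5.61 and 5.41 to 5.80 on the others, all below the median gene of an array. At most 1 member of each list reached the median gene on any array, for endothelial genes only in DOV-13 and for the mesothelial list only in OVCAR-3. Summed log2 levels were 85.2 to 86.2 in SKOV-3 and 85.1 to 86.5 in the other lines for leukocyte markers, 45.6 to 46.6 and 45.3 to 51.3 for endothelial markers, and 41.5 to 41.7 and 41.9 to 47.2 for the mesothelial list. Of 10 reference genes YWHAZ was called, higher at 12.44 and 12.53 in SKOV-3 against 11.68 to 12.15, and the median difference of the 10 was 0.00. By line their median was -0.12 against DOV-13, -0.22 against CAOV-3 and 0.31 against OVCAR-3, so they were not level between lines.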

How the data were processed

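The deposited log2 expression values of 8 Affymetrix arrays (22277 probe sets) were made by the authors with RMA, per the submitters' processing notes. Neither its version nor the joint or separate processing of the arrays is given in the sources used here. RMA compresses differences of dim probe sets. Array medians were 6.19 to 6.30. The number of arrays limits the precision.

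Names of probe sets were taken from the platform's annotation: 19064 carry 1 symbol, 1043 several, 62 are array controls and 2108 others are unnamed here. Each of 11963 genes was represented by its brightest probe set on average. Cell line and treatment were the terms of a two-sided limma fit by lmFit and eBayes (limma 3.58.1 in R 4.3.3, with 3 residual degrees of freedom), and p-values were adjusted by Benjamini-Hochberg across the 11963 genes. A second limma fit used the mean of each line (2 residual degrees of freedom). The scripts were tested on simulated data. Symbols, gene order and promoter sequences came from RefSeq (GRCh38.p14), and 11955 genes were placed on a chromosome.

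The text names the 15 called genes with the largest gap each way whose higher side reached the median gene, up to 6 called members per list and direction, all measured ERBB2 neighbours and a few lineage genes by name. Other genes were named after their values were seen. The members, gene lists and tests were chosen with earlier results of these data known. Alternatives covered probe set choice, normalization, filters, thresholds, priors, and lines or arrays left out.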

Additional observations from a re-analysis of the deposited data

How the results depend on the processing

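Among the called genes that the naming rule gives, 0 changed sign and 13 of 124 lost their call in at least 1 of 4 settings (mean or most variable probe set, repeated quantile normalization, median centring), namely ABCC1, CCND1, COL18A1, COL5A1, COL6A1, E2F5, FGF2, FST, MCL1, MDM2, PCDH1, SCD and YWHAZ. Of genes not called, the difference turned for CACNB1 to 0.06, for EGFR to 0.152 and for RARA to 0.143 with the mean of all probe sets, and to 0.761 for EGFR and 0.383 for RARA with the most variable one. The 927 higher and 737 lower genes became 1767 and 1384 without DOV-13, 1463 and 1160 without CAOV-3, where fewer contrasts had to pass, and 656 to 944 and 565 to 748 with single arrays left out. They became 1668 and 1243 in a contrast with the mean of the other lines, and the higher ones 617 at an adjusted p under 0.01. With no term for the cell line they were 173 and 133, and with it as a random block 27 and 15, since the spread between lines then enters the error. Gaps of 1 unit (126 higher, 119 lower) became 391 and 332 without DOV-13, 192 higher without CAOV-3, 237 lower without OVCAR-3, 386 and 348 at 0.5 units, 40 and 38 at 2 units, and 192 lower in the pI:pC arrays alone. The test over line means called 5 genes in place of 0 with the trend and robust prior. No paired analysis was possible because the replicate number, 1 in every group, pairs nothing beyond cell line and treatment, which are already terms of the fit.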
